A study of Homo sapiens with 19 samples.

Results

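The response of Hermes 3A melanocytes to silencing of MITF was taken from the 6 RNA-seq samples of this comparison among the 19 of the series, 3 labelled shMITF and 3 labelled shSCR. They were chosen by cell line and shRNA, and not by any measured value. Hermes 3A is an untransformed human melanocyte line, and every culture was infected with a lentiviral pLKO vector, with the shRNA against MITF or the scrambled control shRNA. All cultures shared a medium that held TPA, cholera toxin, stem cell factor and endothelin-1. A single shRNA construct and a single line stand for MITF silencing, and the labels do not say whether replicates came from separate cultures, so the p-values measure the spread between these samples, which may be technical. The comparison asks which genes depend on MITF in a melanocyte that is not a melanoma cell.

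MITF is a basic helix-loop-helix leucine zipper factor that binds short E-box motifs, among them the CATGTG core of the M-box in front of pigment genes, and the CACGTG motif it shares with TFEB and TFE3. It is the central regulator of the melanocyte lineage. It drives the enzymes and melanosome proteins that make melanin, and it also acts on survival, cell cycle and lysosomal genes. In melanoma, cells with little MITF are known for an invasive, dedifferentiated state. Among its direct targets, the promoters of pigment genes are the best studied.

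The windows of the pigment genes below are shown because several of these genes moved with MITF. RefSeq promoter windows on GRCh38.p14 were found for TYR, TYRP1, DCT, MLANA and TRPM1, in 7 windows for 5 genes, and PMEL was not among the windows used here. The 250 bases before each annotated start were searched for CATGTG, which reads CACATG on the other strand, and for CACGTG, which reads the same on both strands. None of the matches found overlapped. CATGTG was found in 5 of the 7 windows, at 2 places in 3 of them, and CACGTG in none. The window of MLANA and the one of DCT at chr13:94549407-94549656 held neither. The 5 windows with a match are given 5' to 3' in the direction of the gene, with the matches in capitals.

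TYR chr11:89177625-89177874 (plus strand): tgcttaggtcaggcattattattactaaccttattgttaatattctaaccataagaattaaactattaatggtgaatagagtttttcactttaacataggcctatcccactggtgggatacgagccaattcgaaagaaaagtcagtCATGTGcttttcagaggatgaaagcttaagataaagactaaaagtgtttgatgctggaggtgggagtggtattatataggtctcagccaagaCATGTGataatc
TYRP1 chr9:12693135-12693384 (plus strand): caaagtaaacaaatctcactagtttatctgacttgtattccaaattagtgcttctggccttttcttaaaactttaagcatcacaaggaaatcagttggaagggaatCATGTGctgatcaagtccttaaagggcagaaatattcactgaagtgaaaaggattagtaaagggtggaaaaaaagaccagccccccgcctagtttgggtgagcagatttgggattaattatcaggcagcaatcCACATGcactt
DCT chr13:94479683-94479932 (minus strand): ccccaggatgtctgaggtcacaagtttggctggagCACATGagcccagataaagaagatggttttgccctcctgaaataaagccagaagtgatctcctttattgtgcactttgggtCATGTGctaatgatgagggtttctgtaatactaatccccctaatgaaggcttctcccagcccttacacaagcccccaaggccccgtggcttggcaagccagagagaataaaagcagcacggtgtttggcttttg
TRPM1 chr15:31161161-31161410 (minus strand): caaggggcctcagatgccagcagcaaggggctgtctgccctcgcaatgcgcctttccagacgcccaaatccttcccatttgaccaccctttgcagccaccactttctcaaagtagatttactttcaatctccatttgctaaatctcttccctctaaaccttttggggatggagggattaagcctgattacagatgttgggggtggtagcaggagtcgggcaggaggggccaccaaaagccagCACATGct
TRPM1 chr15:31101726-31101975 (minus strand): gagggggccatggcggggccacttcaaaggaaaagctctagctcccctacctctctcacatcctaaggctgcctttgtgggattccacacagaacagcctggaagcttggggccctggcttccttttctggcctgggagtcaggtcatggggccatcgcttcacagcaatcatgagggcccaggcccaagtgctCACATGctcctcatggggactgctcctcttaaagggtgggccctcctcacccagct

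In TYR the matches began 104 and 12 bases before the start, in TYRP1 144 and 11, in DCT 215 and 134, and in the windows of TRPM1 8 and 56. CATGTG was held by 9.42% of all 35116 promoter windows of this length and CACGTG by 6.34%. Among the 40 windows of the melanin synthesis and melanosome list described later, 14 (35.0%) held CATGTG and 6 (15.0%) held CACGTG. The former motif was in 10.6% of the windows of genes called lower below, 9.03% of those of genes called higher and 6.42% of those of all genes tested. For CACGTG the shares were 7.78%, 7.53% and 8.08%. A match is a description of the sequence, not a measured binding site.

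Levels are given in CPM (counts of a gene per 1000000 counts on all genes), with library sizes scaled by the TMM method, and changes as log2 fold changes of shMITF over shSCR. The shSCR libraries held 39036855 to 50738611 counts on genes and the shMITF libraries 29158502 to 39546150. Melanocyte markers were abundant in all 6 libraries, with a summed level of 55219 to 56308 CPM of the library total in shSCR and 24536 to 31622 in shMITF. Markers of most other cell types were low. The 8 keratinocyte markers summed to 28.6 to 30.5 and 41.1 to 58.5, with KRT5, KRT14, KRT1, KRT6A and SFN at no more than 3 counts in any library. The 8 fibroblast markers summed to 7.94 to 9.02 and 5.61 to 14.6, and the 6 leukocyte markers to 0.394 to 0.651 and 0.683 to 1.03, with PTPRC, CD3E and LYZ at no more than 3 counts. The endothelial markers summed to 9.87 to 11.5 and 8.50 to 14.4, with TEK at no more than 3 counts. Markers of Schwann cells, which share the neural crest origin of melanocytes, summed to 1518 to 1529 and 1051 to 1437. In these bulk samples, fewer cells of a kind and less RNA per cell cannot be told apart.

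MITF itself, the targeted gene, was measured at 901, 938 and 996 CPM in the shSCR samples and at 414, 660.4 and 494 CPM in the shMITF samples. Each shMITF sample lay below all the shSCR samples, with replicate 2 the least reduced. The fall was 0.85 on the log2 scale (log2 fold change -0.85, SE 0.19, adjusted p = 0.0194, edgeR quasi-likelihood test with Benjamini-Hochberg adjustment), so that the mean of the silenced cells was 523 ± 126 CPM (SD, n = 3) against 945 ± 48.2 CPM (SD, n = 3). It passed the threshold on p but not the one on the fold change, which asks for more than 1. The adjusted p rose to 0.0520 without shMITF replicate 3, and to 0.0691, 0.0846 and 0.0960 without shSCR replicates 1, 2 and 3, while the log2 fold change stayed between -1.06 and -0.72 over the 6 fits that left out 1 sample. No silenced sample fell under 414 CPM.

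The shMITF replicates differed from each other far more than the controls did. The biological coefficient of variation over all genes was 31.1% among the shMITF samples, against 5.54% among the shSCR samples and 5.95% among the shBRG1 samples of the same line. Each pair of shMITF libraries showed it, as the pairs of replicates 1 and 2, 1 and 3, and 2 and 3 gave 34.4%, 31.4% and 25.6%. Among the 11643 named genes with at least 100 counts on average, the median SD of log2 CPM was 0.27 over shMITF and 0.07 over shSCR replicates, and it was larger over shMITF for 92.6% of the genes. Replicate 1 of shMITF also stood apart in the share of some sequences. The gene ENSG00000226958 took 1.22% of its counts, against 0.0417% to 0.205% in the other 5 samples, gene IDs not in the annotation used here took 1.96% against 0.641% to 0.937%, and mitochondrial ribosomal RNA took 0.396% against 0.124% to 0.274%. Among the shBRG1 samples, replicate 2 held 0.771%, 1.45% and 0.369% of these sequences, in the same order. The part of these sequences in the spread was not tested. An SD over 1 was seen for 211 genes in shMITF and for 2 in shSCR. For 3829 genes the silenced samples lay on both sides of all the control samples.

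**Figure D1:**
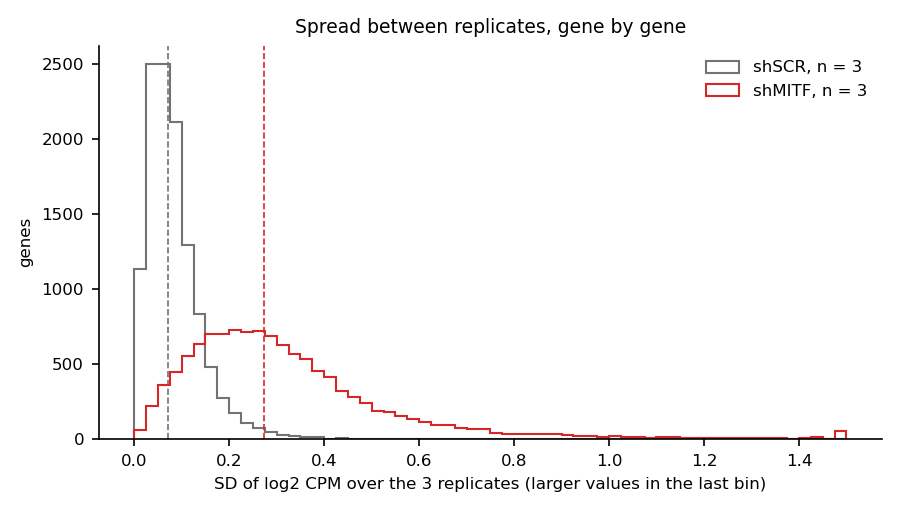
Number of genes (y axis) by the SD of log2 CPM over the 3 replicates of a group (x axis, log2 units), for named genes with at least 100 counts on average, with medians as dashed lines. The shMITF curve is broad with a median of 0.27, and the shSCR curve narrow with a median of 0.07.

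Of the 8 genes with the widest spread, some had silenced samples on both sides of the controls. CCN1, a secreted matricellular protein and a known YAP target, was at 749, 142 and 30.4 CPM in the shMITF samples, with replicates 1 and 2 above and replicate 3 below all the controls (91.9, 101 and 96.4 CPM). Its difference did not pass the test (log2 fold change 1.67, SE 0.93, adjusted p = 0.258). IFITM1, an interferon-induced membrane protein, was at 6.74, 0.758 and 17.1 CPM in the silenced and 5.84, 6.55 and 5.39 CPM in the control samples, again with no difference that passed (log2 fold change 0.46, SE 0.77, adjusted p = 0.720). ADRA2A, an adrenergic receptor, was at 15.99, 2.65 and 0.567 CPM against 0.629, 0.508 and 0.407 CPM. It was called higher (log2 fold change 3.64, SE 1.02, adjusted p = 0.0427), although replicate 3 lay within the range of the controls, and the call was lost without shMITF replicate 1 or shSCR replicates 1, 2 or 3 (log2 fold changes 1.64 to 3.80, adjusted p = 0.0818 to 0.220). CNTNAP4, a cell adhesion protein, was at 0.723, 1.66 and 16.9 CPM against 0.264, 0.695 and 0.549 CPM (adjusted p = 0.0532), and the sodium-coupled transporter SLC5A10 at 0.258, 5.86 and 0.433 CPM against 9.69, 9.38 and 9.27 CPM (adjusted p = 0.146). The other genes of this kind were the short RNA genes MIR663B, RNA5-8SP6 and MIR3648-2, whose counts are uncertain as single loci because near-identical copies exist.

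Of the 16508 genes that passed the filter on low counts, 667 were lower (4.04% of the genes tested) and 553 were higher (3.35%) in shMITF than in shSCR cells at an adjusted p under 0.05 and an absolute log2 fold change over 1. Genes that met both are written as called, and as having fallen or risen. The median log2 fold change of all genes tested was 0.05. Without the threshold on the fold change, 1510 genes (9.15%) were lower and 1296 (7.85%) higher. All 667 called lower, and 550 of the 553 called higher, had every shMITF sample on 1 side of every shSCR sample, which was the case downwards for 20.6% and upwards for 20.3% of all genes tested. When 1 sample was left out, 291 of the lower and 186 of the higher genes were called in each of the 6 fits. Without shSCR replicate 1, 2 or 3 the counts dropped to 406, 372 and 354 lower and to 271, 244 and 236 higher genes. Without shMITF replicate 1, 2 or 3 they were 778, 898 and 652 lower and 692, 661 and 493 higher. Each fit assumed the same dispersion for both groups, although the biological coefficient of variation was 31.1% in shMITF and 5.54% in shSCR. Leaving out a shSCR sample gives the shMITF samples a larger part in that shared estimate. A call lost without a shSCR sample, here and below, therefore need not rest on that sample. With plain library sizes in place of TMM the balance turned to 540 lower and 686 higher, and a test against a log2 fold change of 1 in place of 0 (glmTreat) called 102 lower and 83 higher genes.

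For some genes named here the call also depended on other choices. With no filter on low counts, TRPM1, INHBA, CXCL1, THBS1, IFIT1, OAS2, ISG15, MX1, OAS1, DKK1, SPRY1, TPM1, TAC1 and ADRA2A no longer passed (adjusted p = 0.0607 to 0.289). With plain library sizes GPR143, BUB1, MKI67, CENPF, RRM2, LAMA4 and MBP lay under the threshold on the fold change (log2 fold changes -0.98 to -0.89). The limma-voom fit used sample quality weights, which were lowest for shMITF replicate 1 (0.177, against 9.19 for shSCR replicate 1). By limma-voom CENPF, GINS3, FN1, ISG15, TPM1, LAMA4 and ADRA2A were not called. None of the called genes named here turned its direction under any of these choices.

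Pigmentation genes were lower after MITF silencing in all 3 replicates, taken as a group. Of the 30 genes of melanin synthesis and the melanosome, 11 fell and 1 rose, 25 had a negative log2 fold change, and their median was -0.70 against 0.05 for all genes. The median difference of the shMITF replicates 1, 2 and 3 from the control mean was -1.02, -0.58 and -0.72 on the log2 scale, so the direction held in each. The number of falls was between 8 and 13 in the fits without 1 sample. Over all 16508 genes tested, 7619 had a negative log2 fold change, 4.04% were called lower and 3.35% higher. These are the background for the counts of each list below.

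The 3 enzymes of melanin synthesis did not move alike. DCT, or dopachrome tautomerase, was measured at 19.6, 18.6 and 20.9 CPM in the shSCR samples and at 4.19, 3.50 and 1.27 CPM in the shMITF samples. It fell by 2.71 on the log2 scale (SE 0.37, adjusted p = 0.00291), with all silenced samples well under all controls. TYRP1, which acts beside it, was at 25799.6, 25913 and 27228 CPM in the shSCR samples and at 18095, 15961 and 12146 CPM in the shMITF samples. Its fall passed the threshold on p but not the one on the fold change (log2 fold change -0.77, SE 0.21, adjusted p = 0.0385). TYR, the rate-limiting tyrosinase, was at 1842, 1829 and 1885 CPM in the shSCR samples and at 1419.7, 1222 and 2237 CPM in the shMITF samples, and here the groups overlapped (log2 fold change -0.19, SE 0.23, adjusted p = 0.620). The window before TYR holds the motif at 2 places, as do that of TYRP1 and one of those of DCT.

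Among proteins of the melanosome matrix and membrane, 4 that fell are given here. PMEL, which forms the fibrils on which melanin is laid down, was at 24543, 25805 and 24137 CPM in the shSCR samples and at 9364, 7963 and 7077 CPM in the shMITF samples and fell by 1.61 on the log2 scale (SE 0.19, adjusted p = 0.00193). MLANA, a melanosomal membrane protein used as a melanocyte marker, was at 2578, 2627 and 2660.3 CPM in the shSCR samples and at 1239.6, 1326 and 973 CPM in the shMITF samples and fell by 1.15 (SE 0.17, adjusted p = 0.00438). The replicates of these 2 abundant genes lay farther apart in shMITF than in shSCR, but the groups did not overlap. GPR143, the ocular albinism receptor, fell by 1.04 (SE 0.22, adjusted p = 0.0146), a call that was lost without shMITF replicate 3 or shSCR replicates 1, 2 or 3 (log2 fold changes -1.08 to -0.84, adjusted p = 0.0173 to 0.0681). TSPAN10, a tetraspanin, fell from 364, 372 and 325 CPM to 104, 145 and 63.97 CPM (log2 fold change -1.76, SE 0.27, adjusted p = 0.00453).

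Transporters and channels of the pigment cell gave the widest range. SLC45A2, a melanosomal transporter whose loss causes albinism, was at 11.1, 9.86 and 10.1 CPM in the shSCR samples and at 1.32, 1.52 and 0.667 CPM in the shMITF samples. Its fall of 3.14 on the log2 scale (SE 0.30, adjusted p = 0.000707) was larger than that of any other member of the list. TRPM1, a cation channel whose gene hosts miR-211, was at 1239, 1269 and 1286 CPM in the shSCR samples and at 87.8, 315 and 75.04 CPM in the shMITF samples, a fall of 2.99 (SE 0.52, adjusted p = 0.00731) in which replicate 2 kept more transcript than the others. SLC24A5, an exchanger of the melanosome, fell by 1.19 (SE 0.13, adjusted p = 0.00114), from 494, 503 and 508 CPM to 219, 203 and 237 CPM. OCA2, a chloride channel of the same organelle, was at 925, 943 and 913 CPM and 855, 942 and 1049 CPM, and did not pass (log2 fold change 0.03, SE 0.15, adjusted p = 0.902).

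Of the machinery that carries melanosomes and sorts their cargo, the GTPase RAB38, which carries melanin enzymes to the melanosome, fell from 502, 517 and 520.3 CPM to 172, 237 and 147 CPM (log2 fold change -1.47, SE 0.19, adjusted p = 0.00237). RAB27A, which ties melanosomes to actin, fell by 1.33 (SE 0.27, adjusted p = 0.0145), and HPS4, a subunit of the complex that activates RAB38 and RAB32, by 1.42 (SE 0.31, adjusted p = 0.0168). The calls were lost for RAB27A without shMITF replicate 3 or shSCR replicates 2 or 3 (log2 fold changes -1.37 to -1.29, adjusted p = 0.0536 to 0.0609) and for HPS4 without shMITF replicate 3 or shSCR replicates 2 or 3 (log2 fold changes -1.44 to -1.23, adjusted p = 0.0544 to 0.0679). BLOC1S1, a subunit of the BLOC-1 complex, was the 1 member that rose, from 5.56, 6.41 and 6.10 CPM to 16.9, 9.24 and 16.5 CPM (log2 fold change 1.24, SE 0.24, adjusted p = 0.0121). Its call was lost without shSCR replicates 1, 2 or 3 (log2 fold changes 1.17 to 1.27, adjusted p = 0.0600 to 0.0650).

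**Figure D2:**
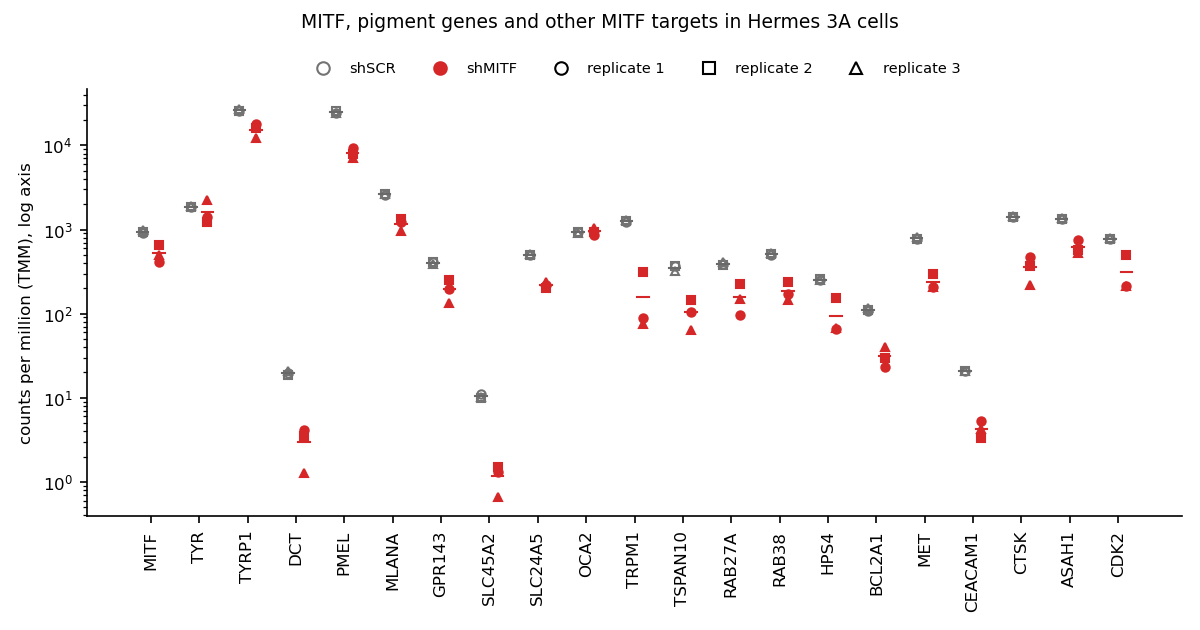
CPM in each of the 6 samples (y axis, log scale) for MITF, pigment genes and other MITF targets (x axis), with shSCR in grey, shMITF in red, replicates by symbol and group means as short lines. For PMEL, MLANA, DCT and SLC45A2 all red points lie below all grey points, while for TYR and OCA2 the groups overlap.

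Of 21 genes commonly described as MITF targets outside pigmentation, 8 fell, none rose, and the median was -0.90. MET, the receptor of hepatocyte growth factor, was at 775, 766 and 812 CPM in the shSCR samples and at 205, 298 and 208 CPM in the shMITF samples and fell by 1.73 on the log2 scale (SE 0.18, adjusted p = 0.000988). BCL2A1, a survival factor of the BCL2 family, fell from 108, 110.1 and 116 CPM to 23.5, 29.7 and 40.2 CPM, a change of -1.84 (SE 0.19, adjusted p = 0.000978). The adhesion molecule CEACAM1 fell by 2.26 (SE 0.20, adjusted p = 0.000626), from 20.6, 20.5 and 20.7 CPM to 5.30, 3.32 and 4.27 CPM. In each of these genes the silenced samples were clear of the controls. The lysosomal protease CTSK fell from 1404, 1402 and 1436 CPM to 474, 369 and 222 CPM (log2 fold change -1.99, SE 0.26, adjusted p = 0.00258), and ASAH1, the acid ceramidase, by 1.13 (SE 0.17, adjusted p = 0.00461). CDK2, a cyclin-dependent kinase whose gene starts beside PMEL, was at 216, 505 and 215 CPM against 775, 774 and 785 CPM and fell by 1.32 (SE 0.32, adjusted p = 0.0263), with replicate 2 again the nearest to the controls. The call of CDK2 was lost without shMITF replicate 3 or shSCR replicates 1, 2 or 3 (log2 fold changes -1.34 to -1.11, adjusted p = 0.0697 to 0.0922). The apoptosis inhibitor BIRC7 and the desaturase SCD were the other members that fell. The count was 6 to 9 in the fits without 1 sample.

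The regulators of the lineage other than MITF did not follow. Of the 17 transcription factors and receptors listed, MITF among them, 15 passed the filter and none was called. Without shMITF replicate 1, 1 was called higher. The 1 called lower without shMITF replicate 2 was MITF itself (log2 fold change -1.06). SOX10, the factor that activates MITF, was at 593, 642 and 555 CPM in the shSCR samples and at 381, 1171 and 626 CPM in the shMITF samples, with replicate 2 high and replicate 1 low, and its sign depended on replicate 2 (log2 fold change 0.28 with it, -0.24 without it, SE 0.35, adjusted p = 0.618 with it). PAX3, another activator of MITF, was at 135, 133 and 134 CPM in the shSCR samples and at 180.0, 261 and 199 CPM in the shMITF samples and SNAI2, a factor of neural crest cells, at 121, 119 and 127 CPM in the shSCR samples and at 159.9, 259 and 195 CPM in the shMITF samples. Both were higher in every silenced sample by a small amount (0.67 and 0.74 on the log2 scale, adjusted p = 0.0228 and 0.0259). The endothelin receptor EDNRB was at 65.7, 145 and 149.7 CPM against 198, 199 and 209 CPM (adjusted p = 0.0983) and the stem cell factor receptor KIT at 398, 612 and 296 CPM against 535, 541 and 559.8 CPM (adjusted p = 0.399). ERBB3, a neuregulin receptor of neural crest derivatives, split the replicates, with 39.97, 132 and 164 CPM against 42.3, 42.7 and 41.2 CPM (log2 fold change 1.41, SE 0.42, adjusted p = 0.0504), and passed with plain library sizes (log2 fold change 1.53, adjusted p = 0.0460).

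Interferon-stimulated genes were lower in the silenced cells. These genes encode antiviral effectors and their regulators, and many cells express them at a low level without added interferon. Of 27 tested, 16 fell, none rose, all 27 had a negative log2 fold change, and the median was -1.53. The medians of replicates 1, 2 and 3 shared the direction but not the size, at -1.99, -2.59 and -0.90 on the log2 scale. In CPM scaled by TMM, every shMITF sample was below every shSCR sample for 25 of the 27, against 20.6% of all genes tested. IFI6, the most abundant member, and IFI27 were at 2051 and 60.6 CPM of the library total in shMITF replicate 3. In shSCR they were at 1598 to 1919 and 27.6 to 38.2. In CPM of the library total, BST2, OASL, IFIH1 and IRF9 in that shMITF replicate also lay above the lowest control. IFITM1, given above, was not on this list. The number of falls was 14, 15 and 21 without shMITF replicates 1, 2 and 3 and 10, 11 and 9 without shSCR replicates 1, 2 and 3.

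IFIT1, which binds viral RNA, was at 183, 172 and 209 CPM in the shSCR samples and at 17.2, 9.50 and 51.4 CPM in the shMITF samples. It fell by 2.86 on the log2 scale (SE 0.53, adjusted p = 0.0101). ISG15, a ubiquitin-like modifier, was at 259.8, 260.0 and 244 CPM in the shSCR samples and at 39.4, 11.7 and 94.1 CPM in the shMITF samples, a fall of 2.40 (SE 0.59, adjusted p = 0.0286). In both, replicate 2 was the lowest and replicate 3 the highest of the silenced samples, and all were below the controls. The GTPase MX1 was at 159, 147 and 161 CPM in the shSCR samples and at 25.1, 18.9 and 57.01 CPM in the shMITF samples and fell by 2.21 (SE 0.36, adjusted p = 0.00597). The oligoadenylate synthetases OAS1, OAS2 and OAS3, which activate RNase L, fell by 1.99 (SE 0.33, adjusted p = 0.00597), 2.54 (SE 0.48, adjusted p = 0.0106) and 2.26 (SE 0.18, adjusted p = 0.000523). The calls were lost for IFIT1 without shSCR replicates 1 or 3 (log2 fold changes -2.89 to -2.79, adjusted p = 0.0528 to 0.0835), for OAS2 without shSCR replicates 1 or 3 (log2 fold changes -2.54 to -2.53, adjusted p = 0.0527 to 0.0722) and for ISG15 without shMITF replicate 1 or shSCR replicates 1, 2 or 3 (log2 fold changes -2.44 to -2.28, adjusted p = 0.0722 to 0.169), while those of MX1, OAS1 and OAS3 held in all 6 fits. Of 16 genes of antigen presentation, which interferon also acts on, none was called, and 1 was higher without shMITF replicate 2.

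The shBRG1 cells of the same line went the other way on these genes. BRG1, encoded by SMARCA4, is the ATPase of a chromatin remodelling complex, and its 3 samples are compared with the same shSCR samples. The summed level of the 28 genes, in CPM of the library total, was 4821 to 4929 in shSCR, 1003 to 3727 in shMITF and 9799 to 10575 in shBRG1, with no overlap between the groups. With shBRG1, 15 of the 28 rose and 0 fell against shSCR, where 5.78% of all genes tested were called higher and 3.47% lower. Against shBRG1 directly, 24 of 28 were lower in shMITF and none higher. IFIT1 changed by -2.86 with shMITF and by 1.68 with shBRG1, a direct difference of -4.54 (SE 0.60, adjusted p = 0.00451). For MX1 the values were -2.21 and 1.92, a direct difference of -4.14 (SE 0.41, adjusted p = 0.00186), and for OAS3 -2.26 and 1.35, a direct difference of -3.60 (SE 0.21, adjusted p = 0.000733).

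**Figure D3:**
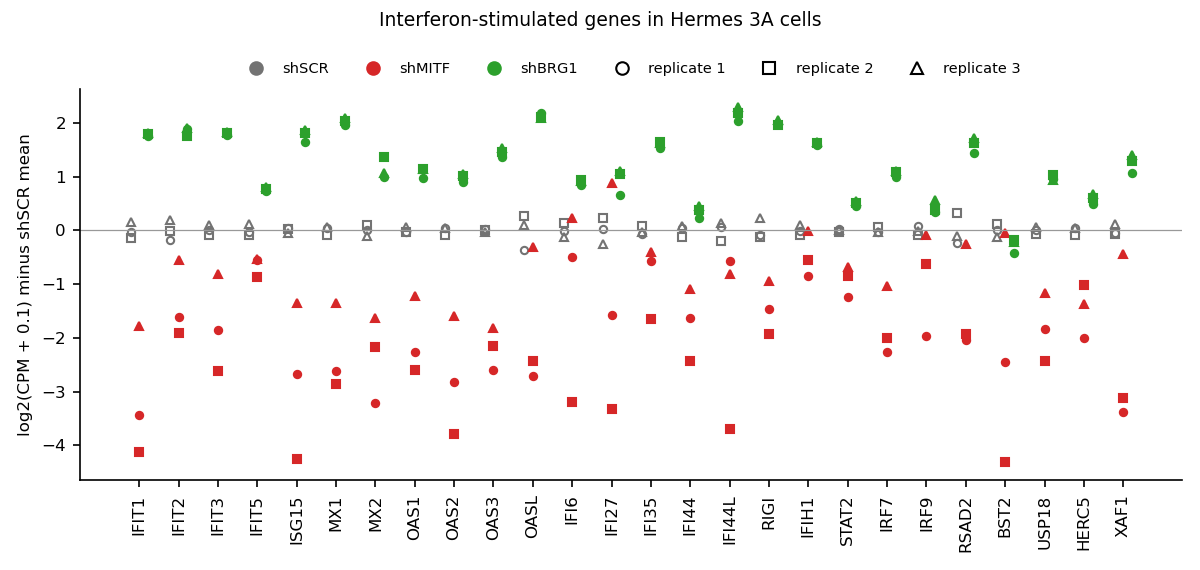
Log2(CPM + 0.1) of 26 interferon-stimulated genes with at least 1 CPM in shSCR (x axis), minus the shSCR mean (y axis, log2 units, CPM of the library total), in each of the 9 Hermes 3A samples. Most red points (shMITF) lie below 0, with replicate 3 nearest to it, and most green points (shBRG1) above 0.

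Genes of mitosis and the kinetochore were lower by small amounts. Of 30 tested, 29 had a negative log2 fold change with a median of -0.70, 18 were lower at an adjusted p under 0.05, and 4 also passed the threshold on the fold change. Over all 16508 genes tested, 7619 had a negative log2 fold change and 9.15% were lower at an adjusted p under 0.05. AURKB, the kinase of the chromosomal passenger complex, was at 28.5, 28.6 and 27.9 CPM in the shSCR samples and at 7.83, 15.2 and 8.20 CPM in the shMITF samples and fell by 1.44 (SE 0.25, adjusted p = 0.00733). MKI67, the proliferation marker Ki-67, was at 163, 153 and 168 CPM in the shSCR samples and at 55.9, 96.5 and 78.6 CPM in the shMITF samples and fell by 1.07 (SE 0.19, adjusted p = 0.00851). BUB1, a spindle checkpoint kinase, fell by 1.06 (SE 0.17, adjusted p = 0.00515) and CENPF, a kinetochore protein, by 1.01 (SE 0.12, adjusted p = 0.00201). Apart from AURKB these calls lie near the fold change of 1, and with plain library sizes the log2 fold changes of MKI67, BUB1 and CENPF were -0.96, -0.98 and -0.92, no longer past it. They were also lost for MKI67 without shMITF replicate 1 (log2 fold change -0.89, adjusted p = 0.00260), for BUB1 without shMITF replicate 3 (log2 fold change -0.93, adjusted p = 0.0131) and for CENPF without shMITF replicate 1 or shSCR replicate 3 (log2 fold changes -0.98 to -0.96, adjusted p = 0.000997 to 0.0194).

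Of 32 genes of DNA replication, 31 had a negative log2 fold change with a median of -0.41. At an adjusted p under 0.05 alone 8 were lower, against 9.15% of all genes tested. With the threshold on the fold change, 1 was called lower and 1 higher. These calls are near the shares over all genes tested, 4.04% lower and 3.35% higher. RRM2, the small subunit of ribonucleotide reductase, fell by 1.04 (SE 0.17, adjusted p = 0.00637), and the call was lost without shMITF replicate 3 (log2 fold change -0.88, adjusted p = 0.0100). GINS3, a subunit of the replicative helicase, was the member that rose, from 6.002, 4.73 and 5.71 CPM to 10.1, 14.5 and 10.5 CPM (log2 fold change 1.10, SE 0.21, adjusted p = 0.0100), and lost its call without shMITF replicate 2 or shSCR replicates 2 or 3 (log2 fold changes 0.91 to 1.11, adjusted p = 0.0112 to 0.0699). Without shMITF replicate 2, 7 genes of this list were called lower, and without replicate 3 none.

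Among 18 cyclins, kinases and inhibitors of G1, 2 fell and 2 rose. CCND1, or cyclin D1, was at 3997, 3981 and 3832 CPM in the shSCR samples and at 1772, 1105 and 1709 CPM in the shMITF samples and fell by 1.36 (SE 0.21, adjusted p = 0.00483). CDKN1B, the inhibitor p27, was at 61.3, 58.4 and 58.7 CPM in the shSCR samples and at 145, 92.2 and 134 CPM in the shMITF samples and rose by 1.06 (SE 0.17, adjusted p = 0.00584), a call lost without shMITF replicates 1 or 3 (log2 fold changes 0.92 to 0.998, adjusted p = 0.00602 to 0.0217). The other members called were CDK2, described above, and CCND2, which rose from a level under 1 CPM. Without shMITF replicate 1 no member of this list was called higher, and without shSCR replicate 1, 2 or 3 only 1 each way.

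Of 20 p53 targets, 2 fell and none rose. GDF15, a secreted stress cytokine of the TGF-beta family, was at 29.1, 30.5 and 25.9 CPM in the shSCR samples and at 1.63, 0.816 and 0.967 CPM in the shMITF samples. Its fall of 4.63 on the log2 scale (SE 0.26, adjusted p = 0.000277) left a wide gap between the groups and held in every fit without 1 sample. FAS, a death receptor, fell from 45.9, 39.9 and 48.8 CPM to 22.6, 17.2 and 12.6 CPM (log2 fold change -1.36, SE 0.21, adjusted p = 0.00489). In the BCL2 family and its neighbours 3 of 20 fell and 1 rose. PMAIP1, the BH3-only protein NOXA, fell from 6.95, 7.24 and 7.32 CPM to 2.04, 2.42 and 1.83 CPM (log2 fold change -1.77, SE 0.21, adjusted p = 0.00161). BMF, another BH3-only protein that promotes apoptosis, rose from 14.8, 15.5 and 14.3 CPM to 59.8, 63.2 and 75.04 CPM (log2 fold change 2.15, SE 0.14, adjusted p = 0.000355), with the silenced samples close together. BCL2A1 and BIRC7 were the other members that fell, and 2 members rose in place of 1 without shMITF replicate 1 or 2.

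Of the 22 lists, secreted factors linked to senescence held the most rises. Of 37 listed, 27 were tested, 10 rose and 1 fell, and the median was 0.94. GDF15, the secreted cytokine that fell and is given above with the p53 targets, was not on this list. The count of rises was 7 to 12 over the fits without 1 sample. The median dropped to 0.13 without shMITF replicate 1 and to 0.33 by limma-voom, in which that replicate had the lowest weight. ANGPTL4, a secreted inhibitor of lipoprotein lipase, was at 0.710, 0.481 and 0.691 CPM in the shSCR samples and at 47.2, 11.1 and 27.2 CPM in the shMITF samples and rose by 5.48 on the log2 scale (SE 0.54, adjusted p = 0.000788). STC1, a glycoprotein hormone, was at 8.54, 9.38 and 8.54 CPM in the shSCR samples and at 67.3, 44.8 and 167 CPM in the shMITF samples and rose by 3.40 (SE 0.45, adjusted p = 0.00262). In both, the silenced samples differed several-fold from each other and were all far above the controls. The EGF receptor ligand TGFA rose from 1.97, 1.04 and 2.07 CPM to 17.96, 10.2 and 11.3 CPM (log2 fold change 2.95, SE 0.33, adjusted p = 0.00132). CCN3, a matricellular protein of the CCN family, rose from 127, 129 and 128 CPM to 670.5, 508 and 1612 CPM (log2 fold change 2.86, SE 0.40, adjusted p = 0.00333). IL6, the inflammatory cytokine, rose from 1.76, 1.44 and 1.50 CPM to 7.44, 4.43 and 11.6 CPM (log2 fold change 2.31, SE 0.35, adjusted p = 0.00457). INHBA, the subunit of activin A, rose by 2.72 (SE 0.50, adjusted p = 0.00942), with replicate 1 at 64.7 CPM and the others at 14.9 and 21.3 CPM, and its call was lost without shSCR replicates 1, 2 or 3 (log2 fold changes 2.62 to 2.78, adjusted p = 0.0539 to 0.0819).

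The chemokine CXCL1 was the 1 member that fell, from 214, 229.9 and 229 CPM to 141, 61.4 and 61.1 CPM (log2 fold change -1.35, SE 0.31, adjusted p = 0.0213), and the call was lost without shMITF replicate 3 or shSCR replicates 1, 2 or 3 (log2 fold changes -1.39 to -1.14, adjusted p = 0.0543 to 0.0806). PDGFA, VEGFA, IL24 and HBEGF were the other members that rose.

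Of 21 genes of the invasive melanoma state, 7 rose and none fell, with a median of 0.73. NGFR, the low-affinity nerve growth factor receptor that marks neural crest-like cells, was at 4.16, 3.82 and 4.11 CPM in the shSCR samples and at 28.3, 64.1 and 101 CPM in the shMITF samples and rose by 3.997 on the log2 scale (SE 0.42, adjusted p = 0.00101). THBS1, or thrombospondin-1, was at 8.86, 10.9 and 9.68 CPM in the shSCR samples and at 555, 144 and 81.7 CPM in the shMITF samples, a rise of 4.73 (SE 0.68, adjusted p = 0.00385) that was far larger in replicate 1 than in the others and was lost without shSCR replicate 1 (log2 fold change 4.65, adjusted p = 0.0712). The extracellular proteins TGFBI and TNC rose by 3.10 (SE 0.33, adjusted p = 0.00101) and 3.24 (SE 0.57, adjusted p = 0.00770), and N-cadherin, CDH2, by 1.45 (SE 0.21, adjusted p = 0.00345). Fibronectin, FN1, rose from 1430.2, 1407 and 1385 CPM to 4613, 2100.0 and 2761 CPM (log2 fold change 1.17, SE 0.28, adjusted p = 0.0238). The calls were lost for TNC without shSCR replicate 2 (log2 fold change 3.14, adjusted p = 0.0506) and for FN1 without shMITF replicate 1 or shSCR replicates 1, 2 or 3 (log2 fold changes 0.78 to 1.17, adjusted p = 0.00702 to 0.113). The receptor kinase AXL was the remaining member called, at under 2 CPM in each sample. The count of rises was 4 to 10 over the fits without 1 sample, with 4, 4 and 5 without shSCR replicates 1, 2 and 3, and 1 member was called lower without shMITF replicate 2. Of the 8 fibroblast markers, 5 were tested with a median log2 fold change of 0.07, and POSTN had no more than 3 counts. PDGFRA and PDGFRB rose, to 1.81, 1.52 and 0.833 CPM and 1.37, 0.495 and 1.50 CPM in the shMITF samples. The other 3 were not called. No member was called higher without shSCR replicate 1, 2 or 3, and 1 was without shMITF replicate 1 or 3. Without shMITF replicate 1, 1 member was called lower. The summed level of the list was 14.6, 5.61 and 6.41 CPM of the library total in shMITF replicates 1, 2 and 3, against 7.94 to 9.02 in shSCR. Their part in these rises was not tested.

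In the WNT, TGF-beta and BMP list 6 of 29 rose and none fell, with a median of 0.75. GDF15, of the TGF-beta family, fell but was not on this list. Among them were antagonists and feedback genes of these pathways. GREM1, a BMP antagonist, was at 0.101, 0.0267 and 0.163 CPM in the shSCR samples and at 17.2, 8.31 and 3.17 CPM in the shMITF samples and rose by 6.52 (SE 0.76, adjusted p = 0.00162). ID3, a target of BMP signalling, was at 48.5, 52.2 and 43.3 CPM in the shSCR samples and at 359.7, 195 and 259 CPM in the shMITF samples and rose by 2.50 (SE 0.22, adjusted p = 0.000630). DKK1, a WNT antagonist, rose from 79.5, 83.3 and 82.8 CPM to 639, 260.4 and 176 CPM (log2 fold change 2.13, SE 0.42, adjusted p = 0.0118). SMAD7, the inhibitory SMAD, rose by 1.44 (SE 0.22, adjusted p = 0.00445) and FST, the activin antagonist follistatin, by 1.91 (SE 0.44, adjusted p = 0.0216). All members called showed every silenced sample above every control, as did 550 of the 553 genes called higher. The calls were lost for DKK1 without shSCR replicates 1, 2 or 3 (log2 fold changes 2.10 to 2.13, adjusted p = 0.0589 to 0.0663) and for FST without shSCR replicates 1 or 3 (log2 fold changes 1.61 to 1.88, adjusted p = 0.0812 to 0.0942). The list gave 3, 4 and 3 rises without shSCR replicates 1, 2 and 3, and 1 fall without shMITF replicate 1.

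**Figure D4:**
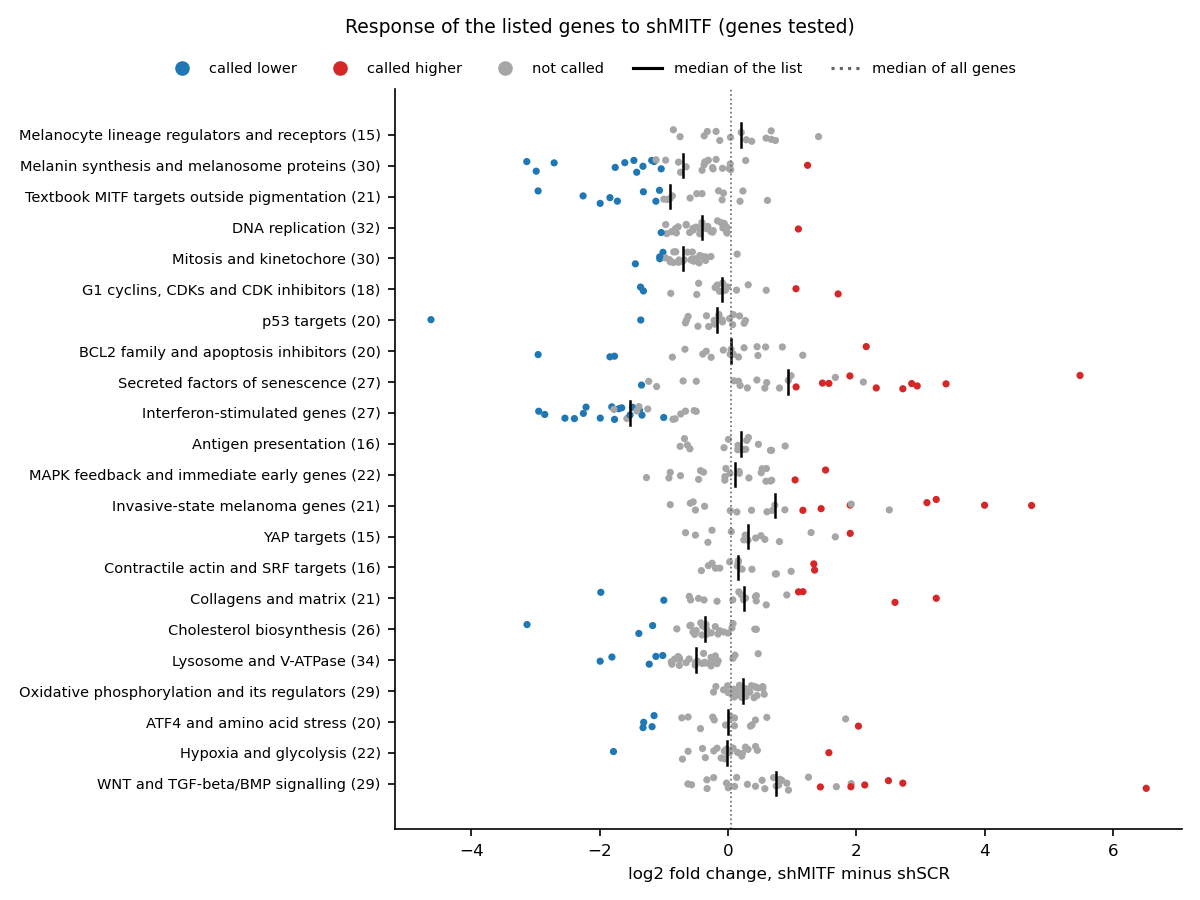
Log2 fold change of shMITF over shSCR (x axis) of every tested member of each gene list (y axis, number tested in brackets), with genes called lower in blue, called higher in red and not called in grey, and the median of each list as a black line. Interferon-stimulated genes (median -1.53) and pigment genes (median -0.70) lie to the left, and secreted factors (median 0.94) and genes of the invasive state (median 0.73) to the right.

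Lysosomal genes, which MITF shares with TFEB as targets, were lower by small amounts. Of 34, 31 had a negative log2 fold change with a median of -0.50, 15 were lower at an adjusted p under 0.05, and 5 fell. The lysosomal channel MCOLN1 was at 128, 131 and 118 CPM in the shSCR samples and at 53.8, 57.6 and 49.3 CPM in the shMITF samples and fell by 1.23 (SE 0.12, adjusted p = 0.000718), with no overlap between the groups. CTSK and ASAH1, given above, also fell.

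Of 26 genes of cholesterol synthesis, 3 fell and none rose, with a median of -0.37. SREBF2, the transcription factor that drives the pathway, fell from 382, 396 and 366 CPM to 103, 216 and 117 CPM (log2 fold change -1.39, SE 0.26, adjusted p = 0.0102), a call lost without shSCR replicate 2 (log2 fold change -1.38, adjusted p = 0.0509). The sterol reductase TM7SF2 fell by 1.18 (SE 0.19, adjusted p = 0.00590). Among 20 ATF4 and amino acid stress genes 4 fell and 1 rose. PSAT1, of serine synthesis, fell by 1.32 (SE 0.21, adjusted p = 0.00541), and CHAC1, ALDH1L2 and CTH by 1.33, 1.18 and 1.15 (adjusted p = 0.0106, 0.00635 and 0.0238). The stress factor ATF3 rose from 8.74, 7.88 and 8.90 CPM to 37.1, 19.4 and 47.97 CPM (log2 fold change 2.03, SE 0.30, adjusted p = 0.00386). The calls were lost for CHAC1 without shSCR replicate 2 (log2 fold change -1.24, adjusted p = 0.0622), for ALDH1L2 without shMITF replicate 2 (log2 fold change -0.98, adjusted p = 0.00231) and for CTH without shMITF replicate 3 or shSCR replicates 1, 2 or 3 (log2 fold changes -1.24 to -0.94, adjusted p = 0.0464 to 0.102). The list gave 2 rises without shMITF replicate 2 or 3, and 2 falls without shSCR replicate 2.

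In the hypoxia and glycolysis list 1 gene of 22 fell and 1 rose, which is near the shares over all genes tested (4.04% and 3.35%). The neuronal enolase ENO2 was at 776, 764 and 742 CPM in the shSCR samples and at 207, 245 and 209.6 CPM in the shMITF samples and fell by 1.79 (SE 0.14, adjusted p = 0.000450), and the angiogenic factor VEGFA rose from 21.2, 20.9 and 21.1 CPM to 64.7, 39.5 and 83.5 CPM (log2 fold change 1.57, SE 0.24, adjusted p = 0.00484). Without shMITF replicate 2, 2 members were called lower. Of 22 MAPK feedback and immediate early genes, the RAS-MAPK inhibitors SPRY1 and SPRED1 rose (log2 fold changes 1.52 and 1.04, adjusted p = 0.0477 and 0.0108) and none fell, while 3 fell without shMITF replicate 1. Of 16 contractile actin genes, ZYX (log2 fold change 1.34, SE 0.17, adjusted p = 0.00233) and TPM1 (log2 fold change 1.35, SE 0.39, adjusted p = 0.0485) rose. Of 21 collagen and matrix genes 4 rose and 2 fell, among them COL1A2 (log2 fold change 1.10, SE 0.27, adjusted p = 0.0272) and the laminin chain LAMA4 (log2 fold change -1.002, SE 0.23, adjusted p = 0.0225). Without shSCR replicates 1, 2 and 3 the collagen list gave 2, 1 and 1 rises. Of 15 YAP targets AXL was called, except without shSCR replicate 1, 2 or 3, and of 29 genes of oxidative phosphorylation and its regulators none was called, with 2 higher at an adjusted p under 0.05. The calls were lost for SPRY1 without shMITF replicates 1 or 3 or shSCR replicates 1, 2 or 3 (log2 fold changes 0.88 to 1.58, adjusted p = 0.0847 to 0.165), for SPRED1 without shMITF replicates 1 or 3 or shSCR replicates 2 or 3 (log2 fold changes 0.90 to 1.07, adjusted p = 0.0158 to 0.0707), for TPM1 without shMITF replicate 1 or shSCR replicates 1, 2 or 3 (log2 fold changes 0.62 to 1.35, adjusted p = 0.00991 to 0.190), for COL1A2 without shMITF replicate 3 or shSCR replicates 1, 2 or 3 (log2 fold changes 0.67 to 1.14, adjusted p = 0.0151 to 0.112) and for LAMA4 without shMITF replicate 1 or shSCR replicates 1, 2 or 3 (log2 fold changes -1.03 to -0.76, adjusted p = 0.00228 to 0.0880).

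Genes of the related Schwann cell lineage moved in both directions. Of the 6 markers, MBP and PMP2, proteins of myelin, fell by 1.05 (SE 0.20, adjusted p = 0.0105) and 4.65 (SE 0.71, adjusted p = 0.00461), and the cadherin CDH19, a marker of neural crest-derived precursors, rose from 87.2, 79.5 and 92.6 CPM to 515, 289 and 436 CPM (log2 fold change 2.26, SE 0.22, adjusted p = 0.000718). The call of MBP was lost without shMITF replicate 1 or shSCR replicates 2 or 3 (log2 fold changes -1.08 to -0.91, adjusted p = 0.00646 to 0.0580), and PMP2 was at 0.0258, 0 and 0.167 CPM in the silenced samples against 1.70, 1.55 and 1.44 CPM.

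Across all genes, the 12 largest rises were taken among genes with at least 100 counts in shMITF and no overlap between the groups. TAC1, which encodes the neuropeptide substance P, was at 0.0608, 0 and 0.142 CPM in the shSCR samples and at 45.1, 2.56 and 6.90 CPM in the shMITF samples. The control samples held 3, 0 and 7 of its counts, and the silenced ones 1744, 88 and 207 (log2 fold change 7.91, SE 1.35, adjusted p = 0.00693), and from so few counts the size of its fold is uncertain. CYP1B1, a cytochrome P450 induced by the aryl hydrocarbon receptor, was at 0.527, 0.909 and 0.366 CPM in the shSCR samples and at 152, 14.1 and 55.7 CPM in the shMITF samples and rose by 6.98 (SE 0.91, adjusted p = 0.00262). In both, replicate 1 was the highest and replicate 2 the lowest of the silenced samples. SERTAD4 rose by 5.83 (SE 0.53, adjusted p = 0.000630), the small heat shock protein HSPB3 by 5.34 (SE 0.52, adjusted p = 0.000754) and the kinesin KIF26B by 4.03 (SE 0.39, adjusted p = 0.000718). MYO1G, LINC02593, SAMD11 and FLRT1, which lies within the gene MACROD1, rose by 4.33, 4.28, 4.22 and 4.03, and GREM1, ANGPTL4 and THBS1 complete the 12. The calls of TAC1 and CYP1B1 were lost without shSCR replicate 1 (log2 fold change 7.78, adjusted p = 0.114) and without shSCR replicate 1 (log2 fold change 6.89, adjusted p = 0.0639), respectively.

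The 12 largest falls were taken by the same rule from the shSCR side. PAEP, the secreted lipocalin glycodelin, was at 9.87, 10.7 and 9.86 CPM in the shSCR samples and at 1.89, 0.641 and 0.300 CPM in the shMITF samples and fell by 3.39 (SE 0.52, adjusted p = 0.00472). Its pseudogene PAEPP1 went from 121, 100 and 111 counts to 1, 1 and 2, but reads of the pair may be shared, so both are uncertain. KCNJ13, an inward rectifier potassium channel, was at 35.4, 35.3 and 38.6 CPM in the shSCR samples and at 0.620, 4.43 and 1.73 CPM in the shMITF samples and fell by 4.02 (SE 0.55, adjusted p = 0.00301). PLA1A, a phospholipase specific for phosphatidylserine, was at 158, 174 and 167 CPM in the shSCR samples and at 16.9, 10.99 and 17.2 CPM in the shMITF samples and fell by 3.47 (SE 0.19, adjusted p = 0.000277). KU-MEL-3, a non-coding RNA named for a melanoma antigen, fell by 4.77 (SE 0.35, adjusted p = 0.000355), ERC2, a presynaptic scaffold protein, fell by 4.60 (SE 0.48, adjusted p = 0.000990), and LDB3, a protein of the muscle Z-disc, fell by 3.33 (SE 0.26, adjusted p = 0.000450). PNLIPRP3, SULT1C2 and ATP6V0D2, a subunit of the V-ATPase, fell by 3.98, 3.35 and 3.27, and GDF15 also stood among the 12. All 12 falls were called in each of the 6 fits without 1 sample. The 8 genes with the widest gap between the nearest samples of the groups in each direction were all among the 12 largest rises and the 12 largest falls, the widest gap being that of GDF15, 3.91 on the log2 scale.

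**Figure D5:**
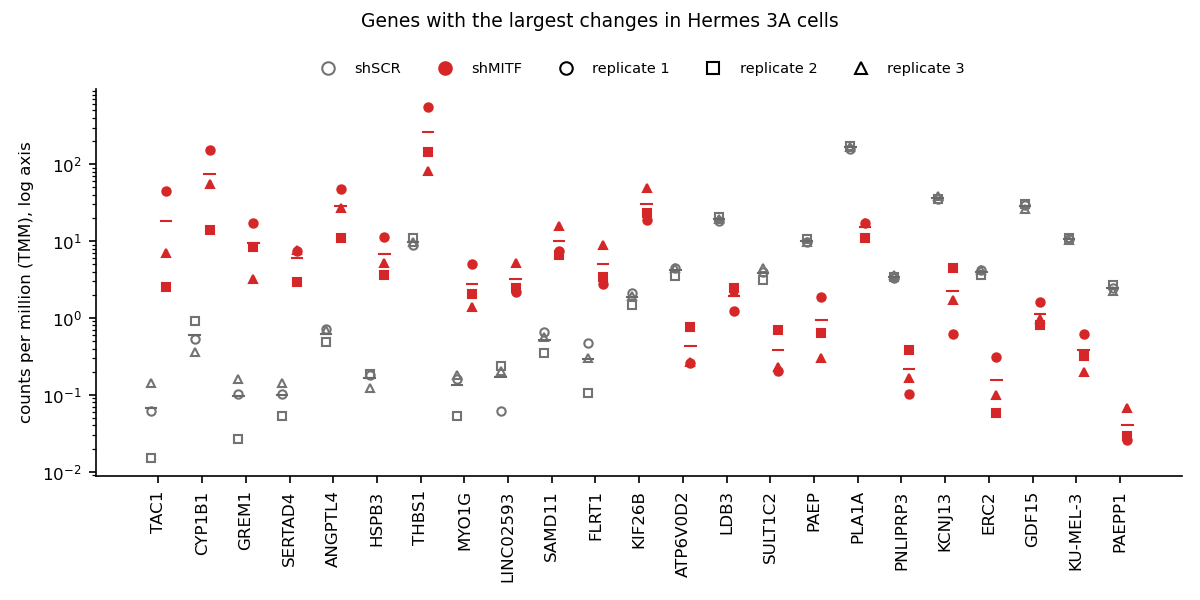
CPM in each of the 6 samples (y axis, log scale, a value of 0 drawn at the bottom of the axis) for the 12 genes that rose the most and 11 of the 12 that fell the most (x axis), with shSCR in grey, shMITF in red, replicates by symbol and means as short lines. The genes were chosen to have no overlap between the groups, and the shMITF replicates of TAC1 range from 2.56 to 45.1 CPM.

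The shBRG1 samples allow a further direct comparison in the same line. Both groups were compared with the same shSCR samples above. Against shBRG1, 632 of 16927 genes were lower in shMITF (3.73%) and 352 higher (2.08%). Without shBRG1 replicates 1, 2 and 3 these counts were 246, 283 and 277 lower and 117, 130 and 129 higher. Of 30 pigment genes none was called in either direction. PMEL changed by -1.61 with shMITF and -0.88 with shBRG1, a direct difference of -0.73 (SE 0.19, adjusted p = 0.0396), and TYR by -0.19 and -0.95, a direct difference of 0.76 (SE 0.23, adjusted p = 0.0687). Of the p53 targets, 6 of 20 were lower in shMITF than in shBRG1 and none higher. Against shSCR, 2 fell and none rose with shMITF (median -0.18), while 1 fell and 3 rose with shBRG1 (median 0.37). GDF15 changed by -4.63 and -1.41, a direct difference of -3.23 (SE 0.28, adjusted p = 0.00148). BMF changed by 2.15 and -0.16, a direct difference of 2.31 (SE 0.13, adjusted p = 0.000733). ANGPTL4 was higher in shMITF by 4.30 (SE 0.51, adjusted p = 0.00318), and TAC1 and CYP1B1 were the other genes at the top of this list.

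The effect of shMITF in Hermes 3A cells was last set against that in 501Mel melanoma cells, where 2 shMITF samples were compared with 2 samples of a control shRNA, shSCR2. In 501Mel cells 3.4% of the genes tested were lower and 5.59% higher. A test of the difference between the effects called 385 of 19284 genes lower (2.0%) and 124 higher (0.643%) in Hermes 3A. DCT fell in both lines, by 2.71 and 2.82 on the log2 scale, and the difference of 0.13 (SE 0.45, adjusted p = 0.923) did not pass. MITF itself changed by -0.85 and -1.06, a difference of 0.22 (SE 0.26, adjusted p = 0.715). SLC45A2 changed by -3.14 in Hermes 3A and by 0.39 in 501Mel cells, a difference of -3.51 (SE 0.35, adjusted p = 0.000835). The same was seen for RAB38, with -1.47 and 0.39, a difference of -1.85 (SE 0.28, adjusted p = 0.00480). Neither gene was called in 501Mel cells. GDF15 gave -4.63 and 0.18, a difference of -4.79 (SE 0.42, adjusted p = 0.000349). STON1, an endocytic adaptor, and OSBPL10, an oxysterol-binding protein, rose in Hermes 3A and fell in 501Mel cells. The values of STON1 were 2.62 and -1.67, a difference of 4.29 (SE 0.53, adjusted p = 0.00169), and those of OSBPL10 1.66 and -2.43, a difference of 4.10 (SE 0.32, adjusted p = 0.000238). Of the 27 interferon-stimulated genes in this test, 8 were lower in Hermes 3A and none higher. Without 501Mel shMITF replicate 2 the counts were 129 and 23, without 501Mel shSCR2 replicates 1 and 2 they were 155 and 171 lower and 47 and 60 higher, and without Hermes 3A shSCR replicates 1, 2 and 3 they were 190, 157 and 184 lower and 50, 39 and 57 higher. Without Hermes 3A shMITF replicates 1 and 2, 242 and 201 were higher.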

How the data were processed

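Deposited values were raw read counts per Ensembl gene, made by the authors from ribosomal RNA-depleted total RNA. Libraries were treated with duplex-specific nuclease, which lowers the most abundant sequences and could compress their levels. The submitters' processing notes name CASAVA 1.8, TopHat 1.4.1, Bowtie 0.12.7 and hg19. Whether counting used strand is not given in the sources used here. The shBRG1 and shSCR1 samples of 501Mel cells were not analysed here.

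Genes listed for both groups (33619) were kept, of which 16508 passed edgeR's filterByExpr. They were fitted by edgeR 4.0.16 (R 4.3.3) with TMM scaling and the robust quasi-likelihood test on the 6 samples, and p-values adjusted by Benjamini-Hochberg over all genes tested. The dispersion of a gene was estimated over both groups together. A gene was called at an adjusted p under 0.05 and an absolute log2 fold change over 1. DESeq2 1.42.0 and limma-voom with sample quality weights (limma 3.58.1) were alternatives. The code was also run on simulated counts with the same dispersion in both groups, which does not test calls under the unequal spread seen here. The comparison with shBRG1 and the difference from 501Mel cells were separate fits. The smallest p an exact permutation of 3 against 3 samples allows is 0.1, so no single-gene permutation test was used.

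Named were MITF, up to 6 called members of each list by size with at least 100 counts in the higher group, lineage and pigment genes, the 12 largest changes each way without overlap, the 8 widest gaps each way, the 8 largest SDs and the leading genes of the other comparisons. A few called members with fewer counts or of lesser size were named after their values were seen. Some genes that this rule names are not reported here. Members and lists were chosen with earlier results of these data known. Gene symbols were matched by Ensembl ID. Promoter windows are RefSeq, GRCh38.p14, 250 bases before the start. CPM in summed levels and in the plot of interferon-stimulated genes use library totals without TMM.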

Additional observations from a re-analysis of the deposited data

Results flagged for a closer look

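The response to shMITF differed between Hermes 3A melanocytes and 501Mel melanoma cells by an edgeR interaction test with Benjamini-Hochberg adjustment, with 385 genes lower and 124 higher in Hermes 3A. Values in brackets are the log2 fold change in Hermes 3A minus that in 501Mel cells. Among the genes named above, the lower ones were GDF15 (-4.79), PMP2 (-4.41), ERC2 (-4.35), KU-MEL-3 (-3.83), SLC45A2 (-3.51), OAS1 (-3.31), CTSK (-2.72), PMAIP1 (-2.19), TM7SF2 (-2.16), ALDH1L2 (-1.93), RAB38 (-1.85), OAS3 (-1.80) and SLC24A5 (-1.03). They include pigment genes (SLC45A2, RAB38 and SLC24A5), oligoadenylate synthetases and the lysosomal protease CTSK. The higher ones were SERTAD4 (5.23), STON1 (4.29), OSBPL10 (4.10), SNAI2 (2.13), CDH19 (2.06), BLOC1S1 (1.61) and GINS3 (1.29). The lines also differ in origin and control shRNA, and their part in these differences was not tested.

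The 414 genes listed for shMITF and not for shSCR stayed out of the tests. They held 315 counts in the 3 shMITF libraries together and 223 of them were also listed for the 501Mel samples.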

How the results depend on the processing

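The number of genes called for shMITF against shSCR, 667 lower and 553 higher, stayed within 1.5 times of these values with DESeq2 size factors, limma-voom, all Hermes 3A groups in one fit, other filters, plain library sizes and a non-robust fit. It moved to 102 lower and 83 higher with glmTreat, and to 1510 and 1296 with no threshold on the fold change. Leaving out 1 sample gave 354 to 898 lower and 236 to 692 higher. The comparison with shBRG1 gave 246 to 834 lower and 117 to 474 higher in this way, and the difference from 501Mel cells 129 to 561 and 23 to 242. That difference gave 618 lower and 286 higher with DESeq2, and 215 higher with no filter on low counts. The cause was not tested.

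MITF kept its direction throughout, from -1.06 to -0.72 without 1 sample, but did not pass with glmTreat (-0.85). It also did not pass without shMITF replicate 3 (-0.81) or without shSCR replicates 1, 2 and 3 (-0.90, -0.88 and -0.82). The biological coefficient of variation of pairs was 25.6% to 34.4% in shMITF and 4.65% to 7.002% in shSCR. Direction turned for 4 genes that were not called: SOX10 (-0.24 to 0.58 without 1 sample), OCA2 (-0.044 to 0.093), CCN1 (-0.17 to 2.21, and -0.16 by limma-voom) and IFITM1 (-0.65 to 1.01, and -0.18 with the replicate block).

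The labels do not say whether same-numbered samples were handled together. Deviations from the group means correlated at -0.06, 0.05 and -0.10 between same-numbered samples, and at -0.09 to 0.15 between the others. These values cannot decide on pairing, because the shSCR samples differ so little from each other (median SD 0.07, against 0.27 in shMITF). With the replicate number as a block, 725 genes were lower and 488 higher, and 6 of the 95 called genes named above were no longer called. Against shBRG1 the block gave 698 lower and 329 higher, and for the difference from 501Mel cells 423 and 154. Of the 95, 61 were called in every fit without 1 sample, and no longer called were 53 with glmTreat, 14 with no filter, 7 with plain library sizes and 7 with limma-voom.

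The limits are the wide spread of the shMITF samples, 1 shRNA construct, 1 line, and depth: 23.5% of the genes called lower and 31.6% of those called higher had under 100 counts in the higher group.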
